A study of Homo sapiens with 6 samples.

Results

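The comparison described here sets A375 cells treated with 100 nM AT9283 for 6 h against A375 cells given the solvent DMSO for 6 h. It rests on 2 of the 6 arrays of the series, chosen by their labels, with 1 array on each side. A375 is an established human melanoma cell line that carries a mutated BRAF gene, and all 6 conditions were made in it. The other arrays held 10 µM vemurafenib with 100 nM AT9283 at 6 h, 10 µM vemurafenib at 6 h, 10 µM vemurafenib at 16 h and DMSO at 16 h. For both DMSO samples, one label field names DMSO and another gives the treatment as none; they are called DMSO here. The title of the series names disrupted ATF4 expression as its subject. No condition was repeated, so a difference between 2 arrays has no replicate error here, and the number of arrays limits the precision of every value below.

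AT9283 is a small-molecule inhibitor of several kinases, best known for the Aurora kinases and JAK2. Aurora A builds the mitotic spindle, and Aurora B, in the chromosomal passenger complex, corrects the attachment of chromosomes to it. Inhibiting Aurora B lets cells leave mitosis without dividing, while JAK2 passes signals from cytokine receptors to the STAT transcription factors. Both groups of kinases act first on proteins, and transcripts of mitotic genes follow the share of cells in G2 and mitosis. In bulk samples, a change in the share of such cells and a change in RNA per cell cannot be told apart.

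Values are intensities on a linear scale, and differences are log2 of the AT9283 array minus log2 of the DMSO array unless another pair is named. A gene was counted when the higher of the 2 arrays reached a log2 value of 6, an intensity of 64, which is called the floor here. It was called higher or lower when its difference reached 0.3, which is 1.23-fold. These size rules are no test, and no p-value across genes was computed from single arrays.

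The 3 promoters printed here serve the later results on MKI67 and CCNB1, which are transcribed in G2 and mitosis, and on CCN2, a gene induced through YAP and TEAD. They are the 250 bases before the start site, 5′ to 3′ on the gene's own strand, from RefSeq on GRCh38.p14. MKI67 is at chr10:128126424-128126673 on the minus strand, CCNB1 at chr5:69166900-69167149 on the plus strand, and CCN2 at chr6:131951373-131951622 on the minus strand. Capitals mark the CHR motif of cell cycle genes (TTTGAA or TTCGAA) and the CCAAT box (CCAAT, or ATTGG on the other strand) in MKI67 and CCNB1, and the TEAD motif GGAATG in CCN2. The TEAD motif was picked after the values of CCN2 were seen.
MKI67: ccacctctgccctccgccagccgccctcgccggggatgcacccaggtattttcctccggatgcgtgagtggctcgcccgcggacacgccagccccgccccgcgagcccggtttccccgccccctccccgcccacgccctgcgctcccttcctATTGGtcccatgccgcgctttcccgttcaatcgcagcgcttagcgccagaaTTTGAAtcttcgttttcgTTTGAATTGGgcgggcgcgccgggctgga
CCNB1: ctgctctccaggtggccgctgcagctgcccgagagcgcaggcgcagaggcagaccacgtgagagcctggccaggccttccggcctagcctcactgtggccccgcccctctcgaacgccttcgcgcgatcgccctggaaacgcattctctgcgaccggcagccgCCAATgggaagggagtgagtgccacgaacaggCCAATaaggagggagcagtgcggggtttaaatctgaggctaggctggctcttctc
CCN2: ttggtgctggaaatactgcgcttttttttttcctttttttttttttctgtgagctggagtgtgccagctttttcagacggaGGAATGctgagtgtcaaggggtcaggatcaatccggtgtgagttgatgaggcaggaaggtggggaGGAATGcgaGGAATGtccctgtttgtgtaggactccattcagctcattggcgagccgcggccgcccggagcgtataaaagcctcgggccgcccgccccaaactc

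Of 19676 genes measured, 8938 reached the floor on the AT9283 or the DMSO array. Median intensity over the arrays ran from 19.8 to 21.3, and the melanocyte-lineage factors SOX10 and MITF were well above the floor. SOX10 read 501 on the AT9283 array and 563 on the DMSO array. The pigment genes PMEL, MLANA and TYR and the S100 genes S100A1 and S100B were below the floor on both. Of 14 measured markers of other lineages, among 15 listed, only the keratin KRT14 reached the floor, at 176 with AT9283 and 178 with DMSO. Their summed intensity was 445 on the AT9283 array and 459 on the DMSO array.

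The arrays differed in a way that touches the sign of small shifts. All 9 hybridization control probe sets, which read control transcripts added to every array, were higher on the AT9283 array than on the DMSO array, by 0.11 to 0.28, and the DMSO array was the lowest of the 4 arrays at 6 h for each. Between the combination and vemurafenib arrays at 6 h, called the other pair below, they differed by -0.043 to 0.069. The log2 difference between 3′ and 5′ control probe sets of ACTB was 0.11 with AT9283 and 0.048 with DMSO. These 12 control rows differed by less than 2-fold between the DMSO arrays at 16 h and 6 h, the 9 hybridization controls by -0.12 to 0.062. Of the other 50 control rows, 37 differed by more than 2-fold between those arrays. Among the later rows the 6 h values looked out of row order, which was not tested. None of the 50 was used. The part of these array differences in the gene differences was not tested.

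Set against the other differences of the series, the AT9283 difference was narrow. Its SD across the 8938 genes was 0.13 log2 units, against 0.20 for the combination minus vemurafenib and 0.24 for the DMSO arrays at 16 h and 6 h. Of the 8938 genes, 208 (2.33%) were higher by the size rule and 66 (0.738%) were lower. In the combination minus vemurafenib, 525 of 8999 genes (5.83%) were higher and 382 (4.24%) lower by the same rule. In DMSO at 16 h minus DMSO at 6 h, 718 of 9055 (7.93%) were higher and 948 (10.5%) lower, so that pair of controls held more genes past the size rule than the AT9283 pair. The split between higher and lower depends on the scaling: with each array centred on its median, 137 genes were higher and 101 lower.

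The genes past the size rule were mostly dim. By mean log2 over the 6 arrays, the rule took 14.6% of the genes below 6 and 7.17% of those from 6 to 7. Among genes with a mean of 10 or more it took 0 higher and 2 lower. Of the 208 higher genes, 41 were below the floor on the DMSO array, and of the 66 lower genes 15 were below it on the AT9283 array. Only 2 genes (0.0224%), FLG and LOC100190986, were higher 2-fold, each with 1 probe set at the floor, and 0 (0.0%) were lower 2-fold. In the combination minus vemurafenib 0 genes were higher 2-fold and 29 (0.322%) lower, and in the DMSO arrays 17 (0.188%) were higher and 8 (0.0883%) lower. FLG, a skin barrier protein, read 65.4 with AT9283 and 28.1 with DMSO, and 11.1 in the combination and 10.2 with vemurafenib.

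Agreement between the probe sets of a gene was read as a check on the measurement, since each reads another stretch of the transcript. Probe sets of a gene read the same 2 RNA samples and are not replicates of the treatment. Of 3828 genes with at least 2 probe sets at the floor, 81 (2.12%) had every such probe set at least 0.2 higher and 27 (0.705%) every one at least 0.2 lower, and these are called higher or lower by the agreement rule. Counts within lists and families use the size rule of 0.3 alone. The median SD between the probe sets of a gene was 0.071 log2 units. Across the 2429 genes with exactly 2 such probe sets, the Pearson r between the probe sets was 0.388, against 0.693 in the combination minus vemurafenib. These values are across genes on shared arrays and describe the measurement only.

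FST had the lowest median of the 27 genes with agreeing lower probe sets. It encodes follistatin, which binds and blocks activin, and INHBA, another of the 27, encodes the activin subunit that follistatin binds. FST read 1041 on the AT9283 array and 1680 on the DMSO array, a difference of -0.69, and its 3 probe sets lay between -0.87 and -0.66. INHBA read 1042 with AT9283 and 1236 with DMSO, and its 2 probe sets gave -0.42 and -0.25. Both genes of this opposed pair were thus lower with AT9283, FST on every probe set by more than INHBA on any. With vemurafenib present the same direction was seen. FST read 189 in the combination and 501 with vemurafenib alone, and INHBA 255 in the combination and 423 with vemurafenib. The DMSO arrays also differed from each other in both genes. Going from 6 h to 16 h, the FST probe sets changed by -0.66, -1.02 and 0.56, and those of INHBA by -0.47 and -0.34. The brightest FST probe set had a log2 value of 10.06 on the DMSO array at 16 h, against 10.02 with AT9283. How far such differences between controls enter the AT9283 values was not tested. In AT9283 minus DMSO, other TGF-beta and BMP readouts were less uniform. In the list of ID and SMAD feedback genes, 0 of 8 genes at the floor passed the rule and 4 lay above 0, with a median of -0.080, and that median changed sign under 2 alternative settings. On the other pair the median of these 8 genes was -0.32, with 0 above 0, against a median of 0.031 for all genes. ID1, a BMP-induced inhibitor of differentiation, read 1423 with AT9283 and 1742 with DMSO, a difference of -0.29, while its relative ID2 had a difference of 0.22 near the floor.

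The matricellular proteins CCN1 and CCN2, which YAP and TEAD induce, were also lower. CCN2 read 522 on the AT9283 array and 694 on the DMSO array, a difference of -0.41 on its only probe set. CCN1 read 1034 with AT9283 and 1262 with DMSO, and its 2 probe sets gave -0.39 and -0.29. On the other pair of arrays both were lower by more, with 90.6 in the combination and 203 with vemurafenib for CCN2, a difference of -1.16. The promoter of CCN2 printed above holds 3 copies of GGAATG, at 169, 104 and 95 bases before the start site. Over the genes lower by 0.3, however, the motif stood on either strand of 6 of 52 promoters (11.5%), near the 10.4% of all genes at the floor. The list of YAP and TEAD genes did not move as a group. By the size rule, CCN2 was lower and 2 were higher of its 15 genes at the floor, and CCN1, at -0.29 on the brightest probe set, was lower by the agreement rule only; the median was -0.0051. The higher ones were LATS1, a kinase that restrains YAP, at 349 with AT9283 and 267 with DMSO, and F3, the tissue factor, at 121 with AT9283 and 96.0 with DMSO. LATS1 was higher in the combination too, by 0.31. F3 was below the floor on both arrays of that pair, at log2 4.49 and 4.61, so its difference of -0.12 there was not counted.

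MITF, the master transcription factor of the melanocyte lineage, read 420 with AT9283 and 529 with DMSO. Its 2 probe sets at the floor agreed closely, at -0.34 and -0.33, and with vemurafenib present they gave -0.66 and -0.56. In that pair MITF read 550 in the combination and 808 with vemurafenib alone. It was the only member past the rule among the 8 pigment cell genes at the floor, whose median was 0.026. The neighbouring list of the undifferentiated melanoma state had 1 of 13 genes lower, IGFBP3, a secreted binder of insulin-like growth factors. IGFBP3 read 188 with AT9283 and 232 with DMSO, with probe sets at -0.30 and -0.28.

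Transcription factors and feedback genes of the early response were lower in part. MAFF, a small MAF protein, read 328 with AT9283 and 436 with DMSO, and its 2 probe sets gave -0.49 and -0.41. KLF6, a zinc finger factor, was lower by 0.25 to 0.31 on each of 4 probe sets, at 325 with AT9283 and 388 with DMSO on the brightest. KLF2, a relative best known from endothelial cells, read 142 with AT9283 and 218 with DMSO, a difference of -0.62. Only 1 of the 2 KLF2 probe sets reached the floor, and the other, well below it, had a difference of 0.026. GADD45B, a stress-induced regulator of p38 signalling, had 3 probe sets between -0.38 and -0.21, and DUSP10, a phosphatase of p38 and JNK, had 2 at -0.42 and -0.23. ATF3, a stress-induced bZIP factor, read 72.3 with AT9283 and 89.7 with DMSO, a difference of -0.31, with -0.073 on its other probe set at the floor. In the ERK output list of 17 genes at the floor, MAFF was lower and SPRED1, an inhibitor of RAS signalling, was higher, at 553 with AT9283 and 448 with DMSO. The ERK list had a median of -0.028, and the 19 immediate early genes had a median of 0.022 with ATF3 alone past the rule.

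Further lower genes have other roles. PNRC1, a coregulator of nuclear receptors, read 47.5 with AT9283 and 79.4 with DMSO, a difference of -0.74 on its only probe set. In DMSO at 16 h minus DMSO at 6 h that probe set had a difference of 0.94. UBALD2 read 153 with AT9283 and 244 with DMSO, and its 2 probe sets gave -0.67 and -0.57. BNIP3L, a mitophagy receptor, read 303 with AT9283 and 385 with DMSO, with probe sets at -0.38 and -0.35. WIPI2, which binds phosphoinositides at forming autophagosomes, had 3 probe sets between -0.36 and -0.24. The lysosome and autophagy list itself had 0 of 16 genes past the rule and a median of -0.0045. CHMP1B, an ESCRT-III subunit that cuts membrane necks, had 2 probe sets at -0.41 and -0.35, and PNPLA8, a phospholipase, had 3 between -0.37 and -0.24.

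The insulin receptor substrates differed in sign. IRS2 read 886 with AT9283 and 1057 with DMSO, and its probe sets gave -0.30 and -0.26. IRS1 read 309 with AT9283 and 264 with DMSO, and its probe sets gave 0.66 and 0.23, which share a sign but differ in size. PIK3R1, the regulatory subunit of PI3 kinase that both substrates recruit, was higher by 0.40, a gene named after its value was seen. On the other pair of arrays the directions were alike, with IRS2 at 533 in the combination and 769 with vemurafenib, and IRS1 at 241 in the combination and 183 with vemurafenib. IRS2 stands in the list of FOXO targets, where 1 of 6 genes at the floor passed the rule, TXNIP, and the median was 0.0034. TXNIP, which binds thioredoxin and limits glucose uptake, read 185 with AT9283 and 144 with DMSO, and its 3 probe sets lay between 0.30 and 0.45. Its direction differed on the other pair, where it read 788 in the combination and 940 with vemurafenib alone, a difference of -0.25.

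**Figure D1:**
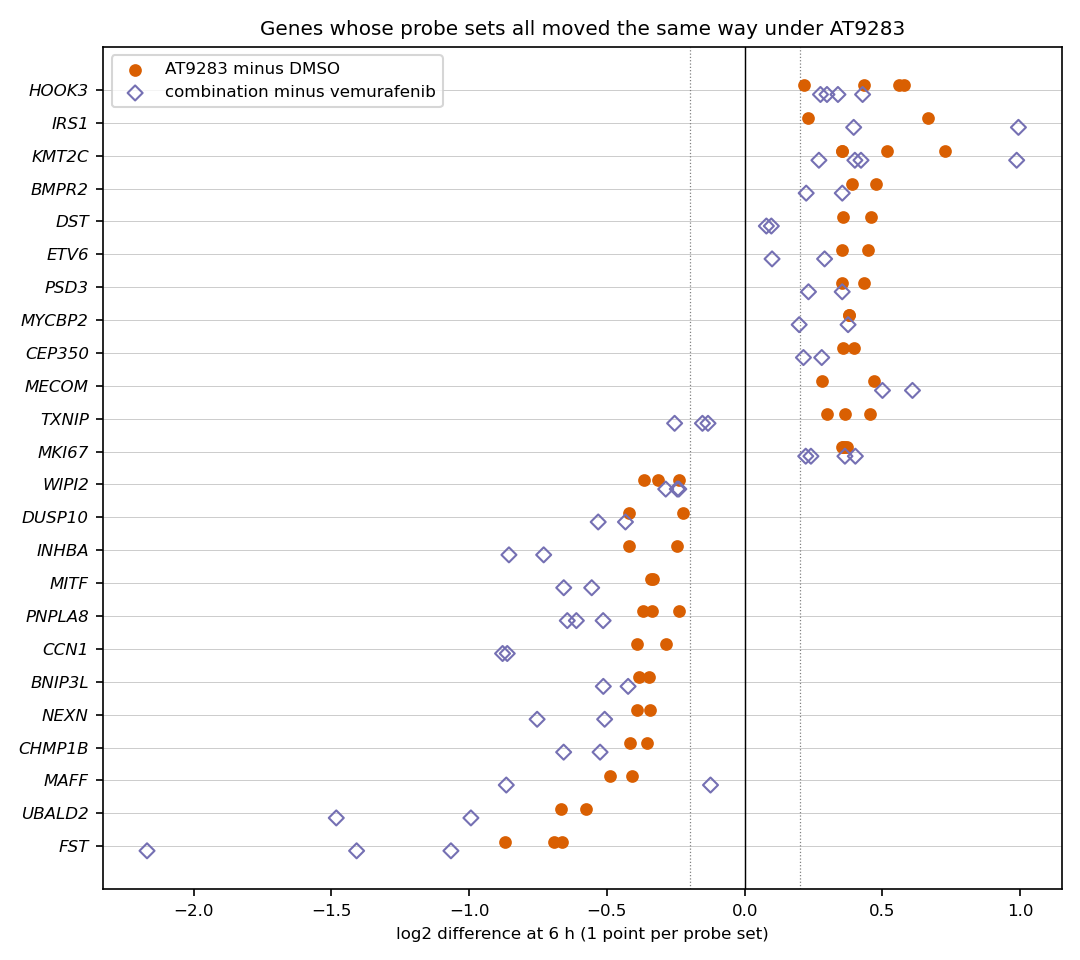
Log2 difference of each probe set at the floor (horizontal axis) for the 12 genes with the highest and the 12 with the lowest median among genes whose probe sets all moved the same way, AT9283 minus DMSO as filled circles and the combination minus vemurafenib as open diamonds; dotted lines mark 0.2 in each direction. The 4 probe sets of MKI67 lie within 0.35 and 0.37, and TXNIP is the one gene whose diamonds lie on the other side of 0 from its circles.

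Several enzymes that act on chromatin were among the genes that were higher. KMT2C, a histone H3 lysine 4 methyltransferase, read 192 with AT9283 and 134 with DMSO, and all 4 of its probe sets at the floor lay between 0.35 and 0.73. Its relative KMT2D read 174 with AT9283 and 122 with DMSO, KMT2A 165 with AT9283 and 120 with DMSO, and KMT2B 99.0 with AT9283 and 79.7 with DMSO. Of the 5 KMT2 genes at the floor 4 were higher by the size rule, a family grouped after its values were seen, and KMT2E had a difference of 0.034. Of all genes at the floor 2.33% were higher, and 3.82% of those with a mean log2 of 6 to 8. In the combination minus vemurafenib all 5 lay above 0, with KMT2C at 0.40 and KMT2D at 0.48 but KMT2A at 0.11 and KMT2B at 0.040. TET3, which oxidises methylated cytosine, read 354 with AT9283 and 258 with DMSO, and 273 in the combination against 200 with vemurafenib.

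Not every probe set of these genes shared the shift. KMT2D had 0.51 on its brightest probe set and 0.17 on the other at the floor. The probe sets of KMT2A at the floor lay between 0.16 and 0.69, so neither gene was higher by the agreement rule. CHD4, the remodelling ATPase of the NuRD complex, read 651 with AT9283 and 456 with DMSO on its brightest probe set, a difference of 0.51, while its other probe sets gave 0.080 and -0.0037. SRRM2, a scaffold of nuclear speckles, had 0.54 on one probe set and 0.20 on the other. In both genes the same probe set was again the highest in the combination minus vemurafenib, at 0.37 for CHD4 and 0.63 for SRRM2. Such a gene-level value is that of one stretch of the transcript.

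Genes of the cytoskeleton and of signalling were among the others with agreeing higher probe sets. HOOK3, which links dynein to its cargo, read 112 with AT9283 and 74.8 with DMSO, and its 4 probe sets at the floor lay between 0.22 and 0.58. DST, a giant linker of actin and intermediate filaments, read 190 with AT9283 and 138 with DMSO, and CEP350, a centrosome protein, 271 with AT9283 and 206 with DMSO. MYCBP2, a ubiquitin ligase, read 480 with AT9283 and 370 with DMSO, and its 2 probe sets gave 0.38 each. BMPR2, the type II receptor for BMPs, read 134 with AT9283 and 102 with DMSO, and MECOM, a zinc finger transcription factor, 137 with AT9283 and 99.2 with DMSO. ETV6, a transcriptional repressor, had probe sets at 0.45 and 0.35. In DMSO at 16 h minus DMSO at 6 h these ETV6 probe sets gave 0.58 and 0.26, while those of MYCBP2 gave -0.14 and -0.052. With vemurafenib present, MECOM and MYCBP2 were again higher by 0.50 and 0.38, while the probe sets of DST gave 0.079 and 0.097.

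The genes named ZNF, mostly zinc finger transcription factors of the KRAB class that share domains and can share probe sequence, leaned the same way. Of 225 at the floor, 14 (6.22%) were higher, against 2.33% of all genes, 0 were lower and 161 (71.6%) lay above 0, against 55.8% of all genes at the floor. Their median was 0.075, against 0.015 for all genes. These genes are dim, with a median mean log2 of 6.95 against 8.06, and dim genes passed the rule more often. Within a mean log2 of 6 to 8 the median was 0.080 over 187 ZNF genes, against 0.028 over all 4115 genes, and 11 of the 187 (5.88%) were higher, against 3.82% of the 4115. ZNF468 read 242 with AT9283 and 176 with DMSO, ZNF770 450 with AT9283 and 338 with DMSO, and ZNF827 174 with AT9283 and 136 with DMSO. The family was grouped after its values were seen. On the other pair its median was 0.084, against 0.031 for all genes, with 161 of its genes above 0.

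Genes that span more of the genome had higher differences. Gene span, the distance from start to end in RefSeq on GRCh38.p14, was known for 8935 of the 8938 genes. The median difference was -0.017 in the 1825 genes of up to 10 kb and 0.062 in the 558 genes over 200 kb, with the bins between them in order. The share of higher genes went with it, at 0.822% in the shortest bin and 7.35% in the longest. The median span was 76.8 kb for higher genes and 19.7 kb for lower genes, against 30.6 kb for all. Within a mean log2 of 7 to 8, so that the bins hold genes of like brightness, 0 of 392 genes were higher in the shortest bin and 11 of 174 (6.32%) in the longest. On other pairs of arrays the medians were also higher in the longest bin, at 0.051 against 0.0032 in the shortest bin for the combination minus vemurafenib, and 0.044 against -0.052 for the DMSO arrays. Spearman's rho across genes was 0.229 here, 0.105 in the combination minus vemurafenib and 0.090 in the DMSO arrays at 16 h and 6 h, values given as a description across genes that share these arrays. The part of RNA quality or array processing in this trend was not tested.

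**Figure D2:**
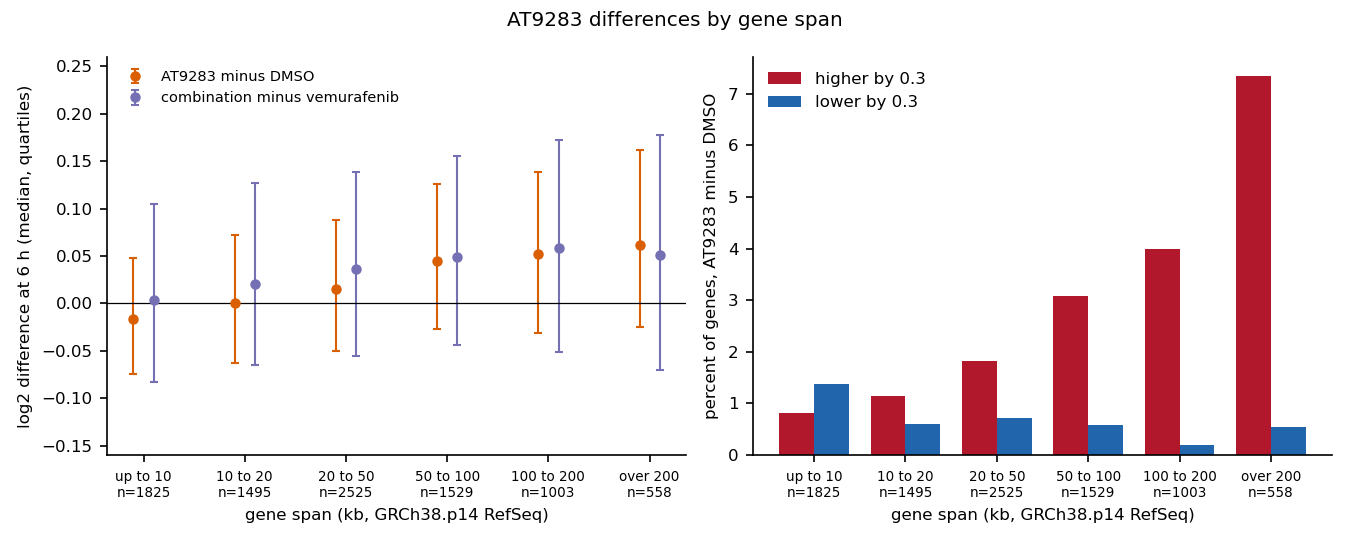
Left, median log2 difference with the lower and upper quartile by bins of gene span in kilobases, for AT9283 minus DMSO and for the combination minus vemurafenib; right, the percent of genes in each bin that were higher or lower by 0.3 in AT9283 minus DMSO. The medians climb from -0.017 to 0.062 over the bins, and the percent of higher genes reaches 7.35% over 200 kb.

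None of the 85 genes at the floor in 5 lists of mitosis genes passed the size rule in either direction, of 91 listed and 88 measured. Of all genes 2.33% were higher and 0.738% lower, so a count of 0 among 85 is near that background. Of these 85, 57 lay above 0, and the median was 0.056 with a range from -0.21 to 0.26. The median over all genes was 0.015. On the other pair the same 85 genes had a median of 0.086, against 0.031 for all genes. Under the alternative settings the median of these lists ran from 0.023, with centred arrays, to 0.070, with both DMSO arrays averaged as control.

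The target kinases that reached the floor were close to level. AURKA, encoding Aurora A, read 1912 on the AT9283 array and 1747 on the DMSO array, and its 2 probe sets at the floor gave 0.14 and 0.13. AURKB read 665 with AT9283 and 677 with DMSO, a difference of -0.026. INCENP, the scaffold of the passenger complex, had a difference of -0.052, BIRC5 (survivin) 0.030 and CDCA8 (borealin) 0.13. BORA, the activator of Aurora A, was the highest of the 7 passenger and Aurora genes at the floor, at 247 with AT9283 and 221 with DMSO. The other listed targets JAK2, JAK3, FLT3 and AURKC were below the floor on both arrays, and ABL1 had a difference of -0.080. Below the floor, the brightest probe sets gave 0.39 for JAK2, -0.40 for JAK3, -0.28 for FLT3 and -0.14 for AURKC. With vemurafenib present AURKA read 2204 in the combination and 1722 with vemurafenib alone, a difference of 0.36.

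Genes of entry into mitosis and of the spindle checkpoint differed in sign. CCNB1, the cyclin that drives CDK1 into mitosis, read 3021 with AT9283 and 2710 with DMSO, and its 2 probe sets gave 0.16 each. PLK1, the polo-like kinase, read 172 with AT9283 and 175 with DMSO. In the entry list 7 of 15 genes at the floor lay above 0, from -0.21 for CDC25C, the phosphatase that activates CDK1, to 0.16 for CCNB1. The kinetochore and spindle checkpoint list had the highest median of all 40 lists, 0.084 over 23 genes, led by SGO2, a protector of centromeric cohesion, at 441 with AT9283 and 369 with DMSO. Spindle motors and cytokinesis genes had a median of 0.060 over 28 genes, among them KIF11, the motor that separates the poles, at 676 with AT9283 and 591 with DMSO.

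MKI67, which coats mitotic chromosomes and marks cycling cells, was higher on each of its 4 probe sets. It read 598 with AT9283 and 465 with DMSO, and the differences lay between 0.35 and 0.37 with an SD of 0.0082. On the other pair it read 607 in the combination and 520 with vemurafenib alone, with probe sets between 0.22 and 0.40. On both DMSO arrays it was lower than on either array with AT9283, at 465 at 6 h and 412 at 16 h. Its promoter, printed above, holds 2 CHR motifs and 2 CCAAT boxes, of which the ones nearest the start overlap by letters. That of CCNB1 holds 2 CCAAT boxes and no CHR within these 250 bases.

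The CHR motif was common in the promoters of the mitosis lists. Promoters of 300 bases, 250 before to 50 after the start site, were found in RefSeq for 7504 of the 8938 genes and 73 of the 85 mitosis genes. CHR stood on either strand in 46 of the 73 (63.0%), against 11.3% of the 7504 and 16.6% of all 27305 promoters in the table. CCAAT stood in 68.5% of the 73, against 37.7% of the 7504. The 46 mitosis genes with a CHR had a median difference of 0.067 and the 27 without one 0.049, with 31 of the 46 and 18 of the 27 above 0. On the other pair the medians were 0.069 with a CHR and 0.10 without one. Motif matches describe the letters of these windows only.

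DNA replication genes lay mostly below 0. Of 33 at the floor, 9 lay above 0, none passed the rule, and the median was -0.039, with MCM2, a subunit of the replicative helicase, at 1210 with AT9283 and 1320 with DMSO. On the other pair the median was 0.034, with 19 of 33 above 0. That is near the values of all genes there, 0.031 with 5235 of 8938 above 0. The lean below 0 was thus not shared, and the median turned to 0.050 in the first pair with both DMSO arrays averaged as control. PCNA, the polymerase clamp, read 3145 with AT9283 and 3138 with DMSO.

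Lists of STAT target, interferon and JAK-STAT genes had medians near 0 at 6 h. In the list of STAT targets and feedback genes, 1 of 12 at the floor passed the rule and the median was -0.0025. The gene was BCL2L1, encoding the survival protein BCL-XL, at 250 with AT9283 and 338 with DMSO. Its other probe set at the floor had a difference of -0.0015, and on the other pair the brighter probe set had 0.16, so the lower value rests on 1 probe set and 1 pair. The feedback inhibitors SOCS2, SOCS3 and CISH had differences of 0.15, -0.051 and 0.032, and SOCS1 was below the floor. Interferon-stimulated genes had 0 of 14 past the rule, with 6 above 0 and a median of -0.048. In the list of receptors, JAK kinases and STAT factors, 0 of 13 genes passed the rule, and the median was 0.017.

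The ATF4 program, which the title of the series concerns, had a median near 0 under AT9283 alone. Its 4 lists cover stress regulators, enzymes that make amino acids, their transporters and tRNA synthetases, with 39 genes at the floor. By the size rule 0 were higher and 1, ATF3, was lower, and 25 lay above 0, with a median of 0.030. SLC38A2, the amino acid transporter that ATF4 induces, had 3 probe sets between -0.34 and -0.21 with -0.21 on the brightest, at 2124 with AT9283 and 2450 with DMSO, and was lower by the agreement rule only. With vemurafenib present the same 39 genes had a median of -0.46, and 1 lay above 0. The difference between the pairs was not tested, as each has 1 array a side. The letters TGATGNAA of the amino acid response element stood in 10 of 33 promoters of these genes (30.3%), against 1.69% of genes at the floor.

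**Figure D3:**
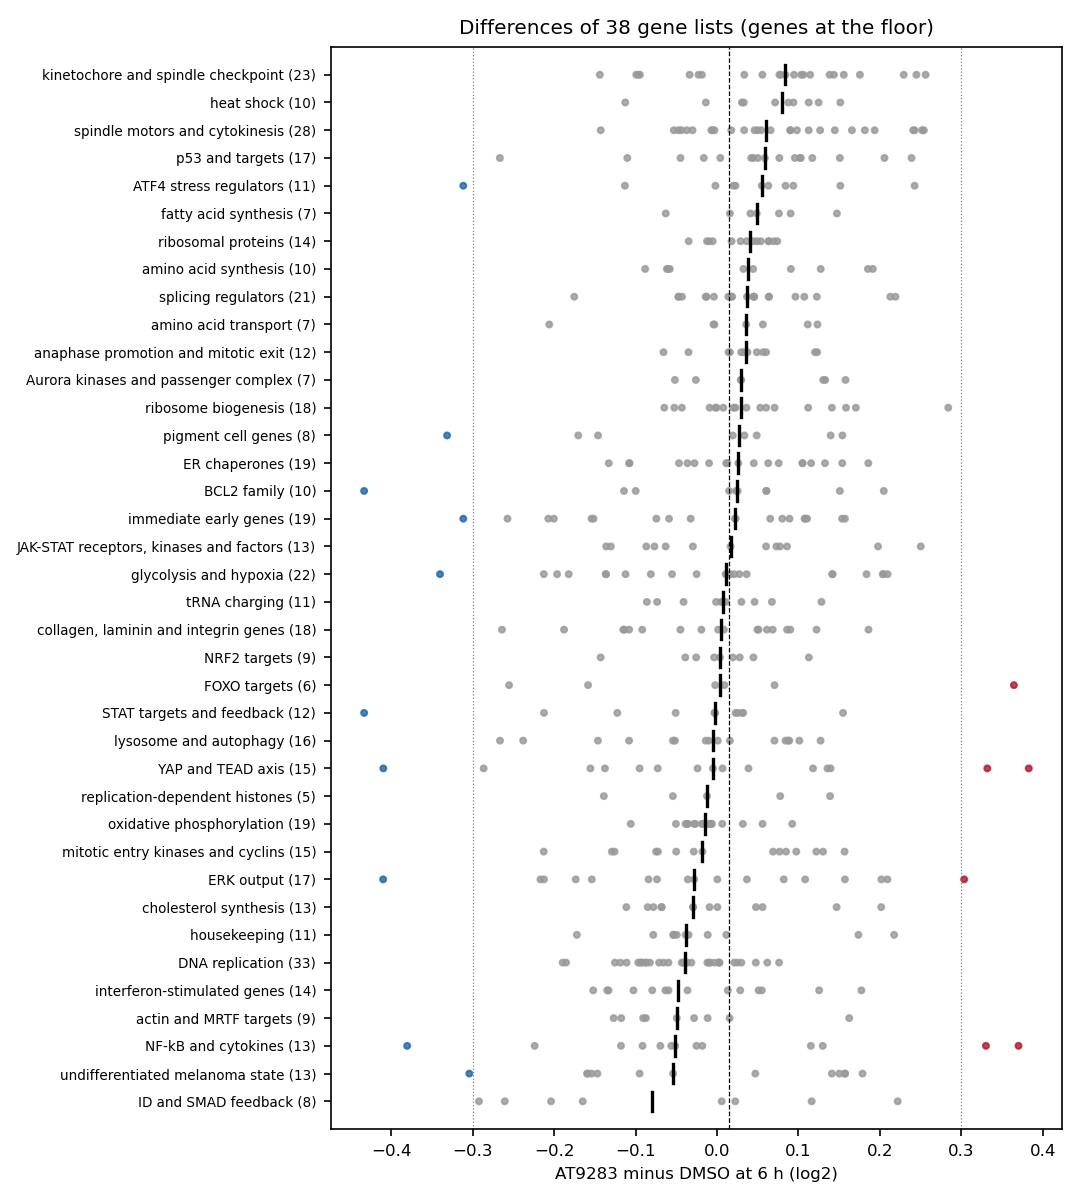
Log2 difference, AT9283 minus DMSO, of each gene at the floor (points) in 38 lists, ordered by the list median (black bar), with the number of genes in parentheses; dotted lines mark 0.3 in each direction, the dashed line the median of all genes, and genes past 0.3 are red (higher) or blue (lower). All medians lie between -0.080 and 0.084, and most lists have no coloured point.

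Other gene groups gave small shifts of the same size. All 40 list medians lay within 0.1 of 0. Of the 520 list genes at the floor 6 were higher and 8 lower by the size rule. Of all 8938 genes at the floor, 208 (2.33%) were higher and 66 (0.738%) lower. Heat shock genes had a median of 0.079 with 8 of 10 above 0, and 10 of 10 above 0 on the other pair. BAG3, a cochaperone that HSF1 induces, read 1265 with AT9283 and 1139 with DMSO. Genes of p53 and its targets had a median of 0.059, with CDKN1A, the CDK inhibitor p21, at 440 with AT9283 and 410 with DMSO. Oxidative phosphorylation genes of the nucleus had 4 of 19 above 0 and a median of -0.015. In the list of NF-kB and cytokine genes, REL and the chemokine CXCL2 were higher and the cytokine IL1B was lower, all of them near the floor. The housekeeping list had a median of -0.039, so a list taken as stable lay as far from 0 as DNA replication.

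Transcripts of the mitochondrial genome stood apart in direction. All 7 at the floor lay below 0, with a median of -0.31 and a range from -0.44 to -0.12, and 4 of them were lower by the size rule, against 0.738% of all genes. They encode subunits of complex I, cytochrome oxidase and ATP synthase. COX1 read 1058 with AT9283 and 1308 with DMSO, ATP6 4148 with AT9283 and 5222 with DMSO, and COX2 5636 with AT9283 and 6619 with DMSO. ND6, the only one of them encoded on the light strand, read 607 with AT9283 and 823 with DMSO. With vemurafenib present all 7 lay above 0, from 0.060 to 0.39, and ND6 read 532 in the combination and 405 with vemurafenib alone. Most are cut from shared precursors and all were read on the same arrays, so they are not independent readings, and the family was grouped after its values were seen. With both DMSO arrays averaged as control the median was -0.13 and ND6 turned to 0.50, and ND6 read 225 on the DMSO array at 16 h.

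Metallothioneins, which bind zinc and copper, were lower together by less. All 7 at the floor lay below 0, from -0.22 to -0.14, with a median of -0.17, and 0 passed the size rule. MT2A had log2 values of 12.06 with AT9283 and 12.22 with DMSO, and MT1X 11.38 with AT9283 and 11.60 with DMSO. On the other pair 6 of the 7 were below 0, with a median of -0.075. These genes are near copies of each other, and their probe sets may share signal.

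**Figure D4:**
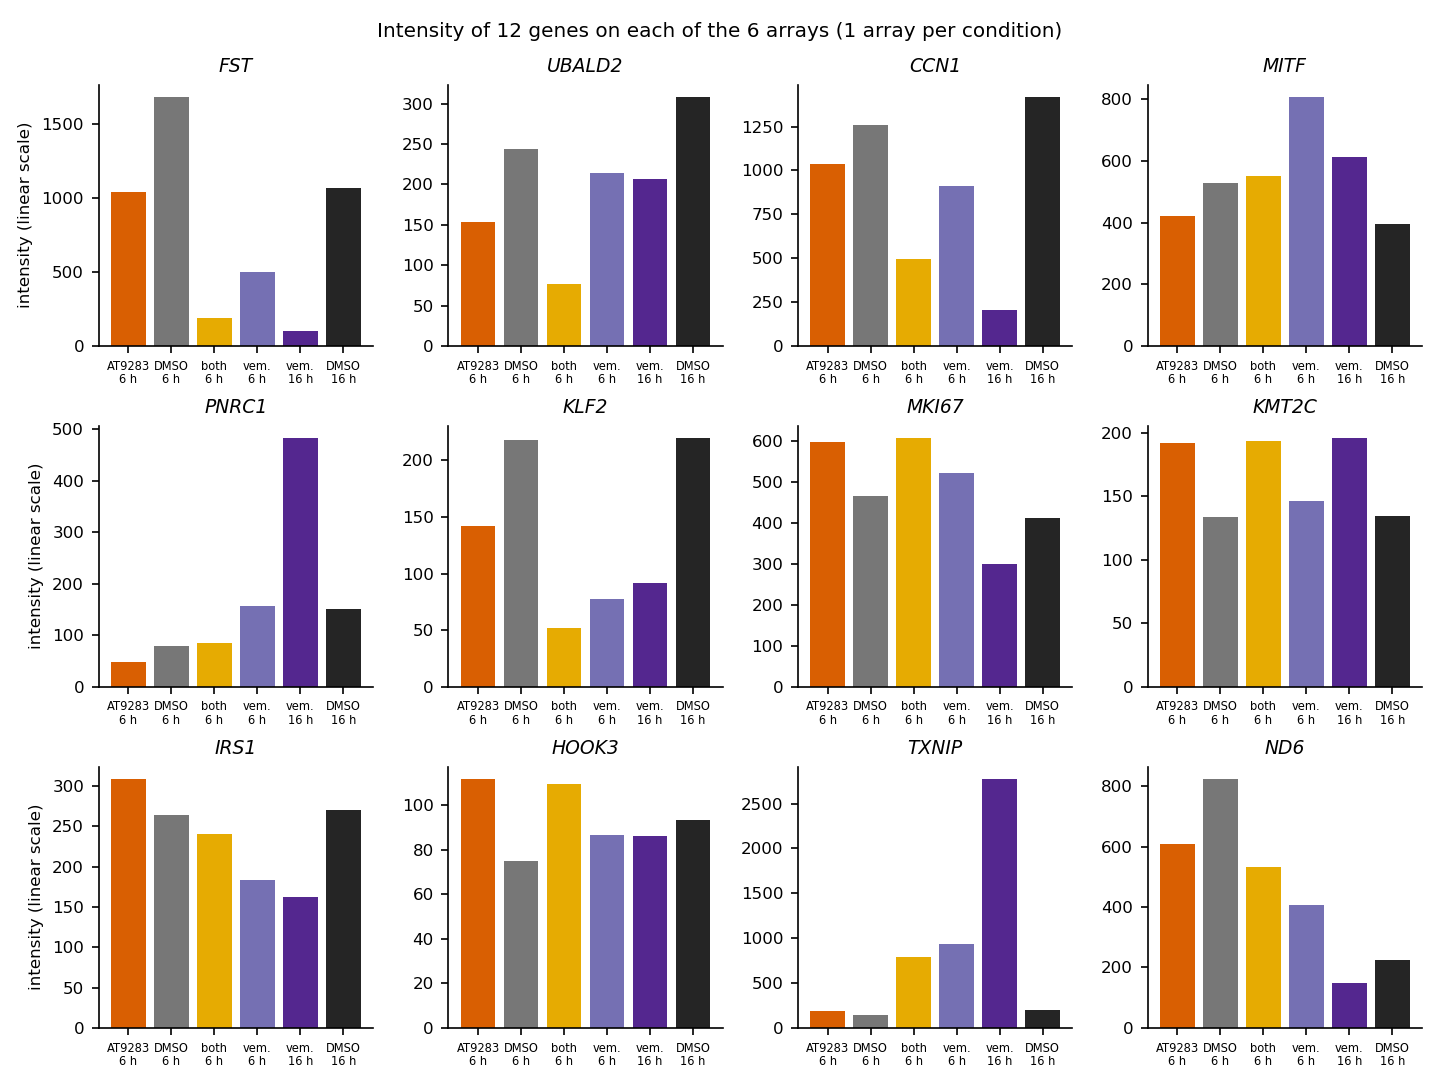
Intensity on a linear scale of 12 genes (1 panel each) on the 6 arrays, with 1 array per bar: AT9283 and DMSO at 6 h, the combination and vemurafenib at 6 h, then vemurafenib and DMSO at 16 h. FST reads 1041 with AT9283 and 1680 with DMSO, MKI67 598 with AT9283 and 465 with DMSO, and TXNIP reaches 2774 with vemurafenib at 16 h.

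A second reading of AT9283 came from arrays that share none with the first. Of 8718 genes at the floor in both pairs, 71 (0.814%) were higher by 0.3 in AT9283 minus DMSO and in the combination minus vemurafenib, and 25 (0.287%) were lower in both. The 71 were 38.2% of the 186 higher genes of the first pair and 14.1% of the 504 of the second. The 25 were 48.1% of 52 lower genes and 7.79% of 321. In these 8718 genes, 186 (2.13%) and 504 (5.78%) were higher and 52 (0.596%) and 321 (3.68%) lower. No gene was higher in the first pair and lower in the second, and 1 (0.0115%) was lower in the first and higher in the second, ND6. Of the 81 genes with agreeing higher probe sets, 77 had a positive median on the second pair, and of the 27 lower ones 25 had a negative one. Over the 8718 genes, 58.4% had a positive difference on the second pair.

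Genes lower in both pairs included those described above, FST, UBALD2, PNRC1, KLF2, CCN2, GADD45B, DUSP10, PNPLA8, CHMP1B, BNIP3L, MITF, ATF3 and IGFBP3. In DMSO at 16 h minus DMSO at 6 h, CCN2 had -0.48 and MITF -0.42, while KLF2 had 0.010 and CHMP1B 0.037. HBP1, a repressor of cell cycle genes, was lower by 0.33 without vemurafenib and by 0.98 with it, and ERRFI1, an inhibitor of the EGF receptor, by 0.30 and 0.85. ARID5B, a chromatin-binding factor, was lower by 0.36 and 0.54, and COQ8A, needed for coenzyme Q synthesis, by 0.43 and 0.78. These were named after their values were seen. The difference with vemurafenib was the larger in 20 of the 25, as for FST at -0.69 and -1.41 and UBALD2 at -0.67 and -1.48. Among the 71 genes higher in both pairs it was the larger in 47. Over all genes, too, the combination minus vemurafenib was wider, with an SD of 0.20 against 0.13.

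Genes higher in both pairs included UNC5D, a netrin receptor, at 66.9 with AT9283 and 34.5 with DMSO, and 73.1 in the combination and 53.6 with vemurafenib. UNC5D had log2 values of 6.06 with AT9283 and 5.11 with DMSO at 6 h, but 6.04 with DMSO at 16 h. It was among 7 of the 71 that reached the floor in each pair only through the array with AT9283, and 23 were below the floor on DMSO or on vemurafenib. Of the 25 lower in both, 4 were below it on AT9283 or in the combination. DGKH, a diacylglycerol kinase, read 174 with AT9283 and 118 with DMSO, and 103 in the combination and 72.7 with vemurafenib. NOM1, a nucleolar protein, read 403 with AT9283 and 291 with DMSO, and 308 in the combination and 228 with vemurafenib. DNMT3B, a DNA methyltransferase, and HELLS, a remodeller that assists DNA methylation, were higher by 0.35 each without vemurafenib and by 0.56 and 0.31 with it. PIK3R1, LATS1 and REL were also among the 71. As a description over the 8718 genes, which share the cell line, the platform and the processing, Pearson's r between the differences was 0.435 and rho 0.440.

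**Figure D5:**
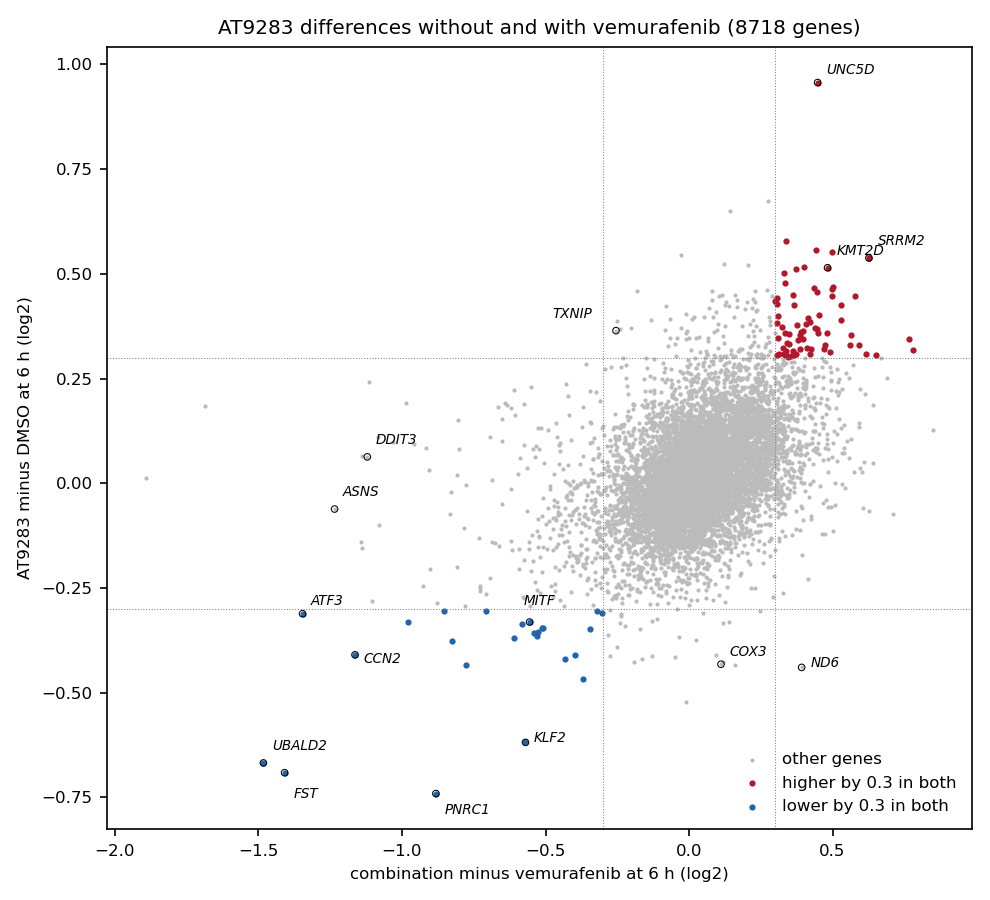
Log2 difference of 8718 genes in the combination minus vemurafenib (horizontal axis) and AT9283 minus DMSO (vertical axis), both at 6 h, with genes past 0.3 in both pairs in red (71 higher) and blue (25 lower) and some genes named. ND6 lies alone in the lower right corner, while ASNS and DDIT3 lie far left near 0 on the vertical axis.

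A limma fit with terms for AT9283 and vemurafenib on the 4 arrays at 6 h has 1 residual degree of freedom, which is the change of the AT9283 difference with vemurafenib and not replicate error. Of 9219 genes it called 0 after Benjamini-Hochberg adjustment at 0.05 (0%), with 0.235 as the smallest adjusted p. At an unadjusted p under 0.05 it had 1118 genes higher and 441 lower.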

How the data were processed

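RNA of A375 cells was read on 6 Affymetrix arrays, 1 per condition; whether each came from its own culture is not stated. The authors deposited 1 table of linear intensity values per probe set. RMA is named in the submitters' processing notes, and its version, joint normalization and later steps were not given in the sources used here. How linear values arose from RMA, which usually returns log2, was not stated.

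Of 54675 probe sets, 1118 (2.05%) in 6 blocks carried 6 h values out of row order. Their r with the DMSO 16 h array was 0.454 for AT9283 as deposited and 0.983 once reordered, against 0.992 elsewhere. These and 62 control probe sets were left out. Annotation gave 1 gene for 41097 probe sets, several for 1801 and none for 11777. Each gene was read from its brightest probe set on average.

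Differences of log2 values were read by the size rules above, and 40 gene lists (685 genes, 627 measured) by counts and medians. Named genes were those past 2-fold, the 12 per direction with agreeing probe sets and the largest median, the 12 per direction with the largest smaller difference in both pairs, up to 4 per list and direction past 0.3, and a set chosen for the question. Not all are printed, and genes outside this rule were named after their values were seen. Members and lists were chosen with earlier results of these data known. Families by symbol, span bins within one brightness band and the TEAD motif were added after the values were seen. Limma 3.58.1 in R 4.3.3 fitted the 4 arrays at 6 h, and steps were tested on simulated data.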

Additional observations from a re-analysis of the deposited data

Results flagged for a closer look

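ND6, a subunit of complex I encoded by the mitochondrial genome, was lower with AT9283 than with DMSO by 0.44 on the log2 scale (a difference of -0.44), and higher in the combination than with vemurafenib by 0.39. It drew attention because the single AT9283 difference of each pair ran in opposite directions, past 0.3 in both. The difference between the pairs was not tested, since each rests on 1 array a side.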

How the results depend on the processing

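Without a floor, 748 genes were higher and 1121 lower by 0.3, 4 were higher 2-fold, 153 and 152 passed in both pairs, and 141 and 146 had agreeing probe sets. With a floor of log2 7 the counts were 100 and 32, 0 at 2-fold, 31 and 14 in both pairs, and 41 with agreeing higher probe sets. Centring each array on its median gave 137 higher and 101 lower, 1 at 2-fold, 34 and 42 in both pairs, and 43 and 46 with agreement. Quantile normalization gave 126 higher, 30 higher in both pairs, and 37 and 44 with agreement. Adding 16 before log2 left 0 at 2-fold and 42 higher in both pairs. Leaving out shared probe sets left 50 and 7 genes with agreement. With both DMSO arrays averaged as control, 440 were higher and 203 lower, 1 was lower 2-fold, 122 and 61 passed in both pairs, 241 and 71 agreed, and the mitochondrial median was -0.13. A size rule of 0.5 left 20 higher and 7 lower, and an agreement rule of 0.1 gave 370 and 120. The cause of these moves was not tested, beyond what fewer or more genes admitted by a floor or size rule give by construction.

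Of 40 list medians, 14 changed sign with both DMSO arrays averaged, 12 after centring, 12 without shared probe sets and at most 6 under any other setting, and DNA replication turned to 0.050 with both DMSO arrays. Without shared probe sets, the ID and SMAD feedback median was 0.022 and the undifferentiated melanoma median 0.088, while CXCL2 had -0.088, KLF2 0.026, MYLIP -0.20, SRRM2 -0.31, TOR4A 0.26 and XYLT1 -0.30, each on a dimmer probe set. Without a floor, NF-kB had 0.049 and ID and SMAD feedback 0.0057. With both DMSO arrays, NF-kB had 0.018, the undifferentiated list 0.14, ND6 0.50 and NEXN 0.038. Of 86 named genes past 0.3, 78 stayed past it after centring and 59 with both DMSO arrays. Keeping the misplaced rows as deposited, or reordering them, left all 86 past it.

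No paired analysis was possible because each condition has 1 array and no replicate number. Leaving out a replicate was not run for the same reason. Of genes with a mean log2 below 6, 14.6% passed the size rule, so readings of dim genes are less firm.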
